A study of Mus musculus with 6 samples.

Results

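The genes described here build, sulfate, carry and trim heparan sulfate and chondroitin sulfate, the long sulfated sugar chains of cell surfaces and extracellular matrix. They were chosen by gene symbol from families of enzymes and core proteins, together with Cemip2 (older symbol Tmem2), a membrane protein reported to cut hyaluronan. In all, 51 of the 19938 genes with a single symbol on the array are members, each with 1 probe set. The set is wider than synthesis alone: 10 members are membrane proteins that carry the chains, 2 are extracellular sulfatases, and some carbohydrate sulfotransferases act on other glycans.

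The series measured gene expression in adult forebrain cortex of C57BL/6 mice and asks what the loss of Dicer, a ribonuclease needed to make mature microRNAs, does in adult forebrain neurons. The 3 animals labelled Dicer KO are Dicer flox/flox and carry CamKII-Cre, a driver active mainly in excitatory neurons of the forebrain, so that most other cells of the tissue keep the gene. The 3 controls are littermates that either carry the Cre with a single floxed allele or have 2 floxed alleles without the Cre. Which control has which genotype is not stated, and every animal carries at least 1 floxed allele. The age is given only as adult.

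Each animal gave 1 array, and precision is limited by their small number. The 6 arrays had median log2 values of 7.13 to 7.22. Excitatory neuron markers were present, with Slc17a7, the vesicular glutamate transporter of cortical neurons, between 12.06 and 12.37 on every array. Dicer1 itself averaged 9.57 ± 0.11 in the arrays labelled Dicer KO and 9.19 ± 0.018 in the controls (SD, n = 3 each), higher and not lower (limma adjusted p = 0.102), so directions below are those of the arrays labelled Dicer KO. Which exons this probe set reads was not checked, and if they lie outside the floxed part its level says nothing of the deletion. Control array 1 stood apart in olfactory bulb markers, whose mean lay 0.94 above the control mean there and between -0.53 and -0.30 on the other 5 arrays. Labelled KO array 3 stood apart in microglia markers, at 0.65 by the same measure. Judged by Xist and the Y-linked Eif2s3y, labelled KO array 2 and control arrays 1 and 3 are from females, the others from males. The labels give no batch. Levels are log2 signal, and differences are log2 values of the labelled KO mean minus the control mean, given ± the standard error of the fit.

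Heparan sulfate chains are started on a core protein by xylosyltransferases, extended by the exostosin enzymes, and then modified in steps: N-deacetylation and N-sulfation, epimerisation of glucuronic acid, and 2-O-, 6-O- and the rare 3-O-sulfation. The resulting sulfate pattern decides which growth factors and guidance proteins bind. Chondroitin sulfate chains grow from the same linker and make up much of the matrix around brain cells, including the perineuronal nets of interneurons. In brain the 3-O-sulfotransferases Hs3st2 and Hs3st4 are largely neuronal, and 3-O-sulfated heparan sulfate has been linked to tau phosphorylation in experimental models.

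The 250 bases before the annotated start of 2 members are shown because these genes had the smallest p among the heparan sulfate enzymes and among the core proteins and have an entry in the RefSeq promoter table (build GRCm38.p6). The Hs3st2 window is chr7:121392046-121392295 on the plus strand and the Sdc4 window chr2:164443189-164443438 on the minus strand, each written 5′ to 3′ on the strand of the gene. Capitals mark the cyclic AMP response element TGACGTCA and the GC box GGGCGG, which were searched on both strands and do not overlap here.
Hs3st2: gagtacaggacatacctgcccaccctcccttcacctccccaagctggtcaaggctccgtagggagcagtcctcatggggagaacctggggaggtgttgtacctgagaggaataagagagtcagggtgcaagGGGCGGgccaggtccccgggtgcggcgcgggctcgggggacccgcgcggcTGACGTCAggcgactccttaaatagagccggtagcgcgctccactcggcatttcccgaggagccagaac
Sdc4: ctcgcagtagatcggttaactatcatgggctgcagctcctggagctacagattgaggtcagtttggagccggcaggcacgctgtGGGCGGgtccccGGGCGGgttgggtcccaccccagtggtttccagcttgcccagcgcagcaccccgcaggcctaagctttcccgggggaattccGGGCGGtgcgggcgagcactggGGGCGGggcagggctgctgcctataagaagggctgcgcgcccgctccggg

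The Hs3st2 window holds 1 cyclic AMP response element, whose first base lies at -69 from the start, and 1 GC box. The Sdc4 window holds 4 GC boxes and no cyclic AMP response element. The table has windows for 39 of the members, 44 windows in all. The response element was found in 2 of these (4.55%), those of Hs3st2 and Hs3st3a1, and in 1.55% of all 32851 windows. GC boxes were found in 31 of the members' windows (70.5%) and in 32.7% of all windows. The letters CCAAT and TATAAA, also searched on both strands, are in neither printed window. CCAAT was found in 43.2% of the members' windows and 33.8% of all, and TATAAA in 6.82% and 12.4%. All windows were not matched to those of the members for gene type or base content. A match describes these letters only.

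Of the 51 members, 2 passed the threshold over all genes (limma, Benjamini-Hochberg adjusted p under 0.05), where 0.281% of all genes did. Hs3st2 fell (0.191% of all genes were called lower) and Cemip2 rose (0.0903% were called higher) in the arrays labelled Dicer KO. Leaving out any 1 array other than labelled KO array 3 left 0 of the 19938 genes past the threshold in limma, with 2197 to 2532 at an unadjusted p under 0.05, so every call below rests on each of those 5 arrays. At an unadjusted p under 0.05 there were 13 members (25.5%), 5 higher and 8 lower, against 14.4% of all genes, 7.01% higher and 7.39% lower. In 18 members (35.3%) the groups did not overlap, with the labelled KO arrays above in 7 and below in 11, against 20.3% of all genes, 9.3% above and 11% below. The median log2 difference of the members was -0.11, beside -0.0092 for all genes, and 33 members (64.7%) lay below 0, beside 52.7% of all genes. That median was -0.050 without labelled KO array 2, -0.072 without control array 3 and -0.047 with array weights. Joined after their values were seen, the 28 sulfotransferases had 22 members below 0 and a median of -0.22. The 23 other members had 11 below 0 and a median of 0.0076. The sulfotransferases averaged -0.14, -0.27 and -0.087 from the control mean in labelled KO arrays 1 to 3. Control arrays 1 to 3 were at 0.03, -0.049 and 0.019. Labelled KO array 2 thus lay furthest from 0, and array 3 of that group lay near control array 2. In whole cortex, fewer cells of a type and less RNA per cell cannot be told apart.

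**Figure D1:**
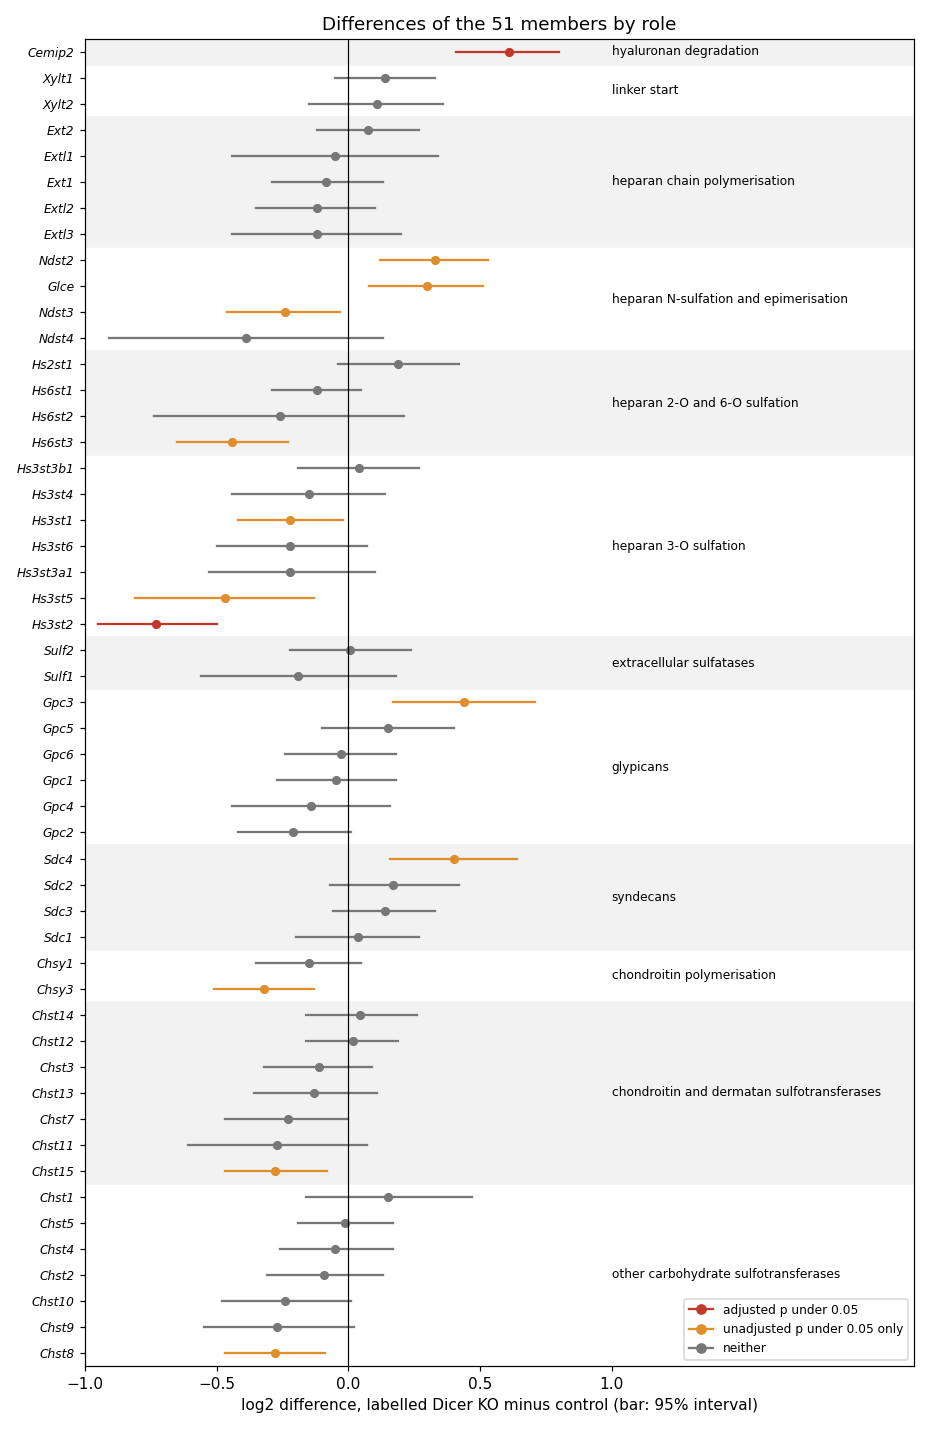
Log2 difference (labelled Dicer KO minus control) of each of the 51 members, grouped by role, with the 95% interval of the limma fit as a bar (n = 3 arrays each). Cemip2 at 0.61 and Hs3st2 at -0.73 are the members past the threshold over all genes, and 6 of 7 points of the 3-O-sulfotransferases lie left of 0 while all 4 syndecans lie right of it.

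The 3-O-sulfotransferases place the last and rarest sulfate on heparan sulfate. They were lower in 6 of 7 members (85.7%, beside 52.7% of all genes), with a median of -0.22, and 1 passed the threshold. Their median deviation from the control mean was -0.28, -0.37 and -0.093 in labelled KO arrays 1 to 3. Controls were at 0.061, -0.12 and 0.029, so control array 2 lay below labelled KO array 3. Their mean deviations did not overlap, at -0.18 in labelled KO array 3 and -0.14 in control array 2. Hs3st2 read 8.89, 8.62 and 8.88 in labelled KO arrays 1 to 3, against 9.58, 9.45 and 9.54 in control arrays 1 to 3. Every labelled KO array lay below every control array, and the gap between the groups was wider than the spread within either. It averaged 8.80 ± 0.15 in the arrays labelled Dicer KO and 9.52 ± 0.068 in controls (SD, n = 3 each), 1.66-fold lower, a difference of -0.73 ± 0.10 (SE; limma adjusted p = 0.0358). The call was lost without labelled KO array 1 or 2 or any 1 control array, when the difference lay between -0.78 and -0.64 (adjusted p = 0.0924 to 0.167), and kept without labelled KO array 3 (adjusted p = 0.0368). It was also lost with the animals' sex in the model, at -0.75 (adjusted p = 0.126), and in a test without moderation (adjusted p = 0.194).

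Hs3st5, an isoform that can make both antithrombin-binding and herpesvirus-binding sites, read 6.80, 6.35 and 6.76 in labelled KO arrays, against 7.31, 6.87 and 7.13 in controls. The groups were separated by a narrow margin, and array 2 was the lowest of each. Its difference of -0.47 ± 0.15 did not pass over all genes (limma adjusted p = 0.207). Hs3st1, which makes the antithrombin-binding site of heparin, read 7.48, 7.65 and 7.59, against 7.86, 7.72 and 7.81 in controls, and differed by -0.22 ± 0.088 (limma adjusted p = 0.296). The groups of Hs3st1 did not overlap either.

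The other 4 members of this group overlapped between the groups, and without labelled KO array 2 the differences of Hs3st3a1 and Hs3st4 were -0.071 and -0.039. Hs3st3a1 read 6.46, 6.09 and 6.60 in labelled KO arrays, against 6.53, 6.50 and 6.77 in controls, and Hs3st6 read 7.09, 7.09 and 7.28, against 7.36, 7.14 and 7.61. Hs3st4, the other enzyme with mainly neuronal expression, differed by -0.15 with a 95% interval from -0.44 to 0.14. Hs3st3b1, whose sulfotransferase domain is nearly identical to that of Hs3st3a1, differed by 0.041 (95% interval -0.19 to 0.27). Whether the probe sets of this pair read each other's transcripts was not examined.

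Among the enzymes that add 2-O- and 6-O-sulfate, 3 of 4 were below 0 and none passed the threshold. Hs6st3, a 6-O-sulfotransferase, read 8.77, 8.81 and 8.88 in labelled KO arrays, against 9.40, 9.19 and 9.18 in controls. The groups were clearly apart, with control array 1 the highest of all. It was 1.36-fold lower, at -0.44 ± 0.093 (SE; limma adjusted p = 0.0885), and -0.37 without control array 1. The other 6-O enzymes were nearer to 0: Hs6st1 differed by -0.12, with groups that did not overlap, and Hs6st2, on the X chromosome, by -0.26 with a 95% interval from -0.74 to 0.21. Hs6st2 read 8.61, 8.27 and 9.16 in labelled KO arrays, against 8.80, 8.83 and 9.21 in controls, so its arrays spread more within a group than between groups, and the difference was -0.058 when labelled KO array 2 was left out and -0.50 when array 3 of that group was. Hs2st1, the only 2-O-sulfotransferase of heparan sulfate, read 10.09, 10.30 and 10.14, against 9.86, 9.95 and 10.14 in controls, at 0.19 ± 0.10 (limma adjusted p = 0.439).

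The enzymes that act first on the new chain went both ways. Ndst2, an N-deacetylase and N-sulfotransferase known for heparin synthesis in mast cells, read 8.29, 8.48 and 8.52 in labelled KO arrays, against 8.16, 8.08 and 8.07 in controls. All labelled KO arrays were above all controls, at 0.33 ± 0.092 (SE; limma adjusted p = 0.162). Ndst3, a brain-enriched relative, read 8.39, 8.37 and 8.60, against 8.61, 8.75 and 8.73 in controls, at -0.24 ± 0.096 (limma adjusted p = 0.293), with labelled KO array 3 just under control array 1. Ndst4 was the most variable of them, at 6.05, 5.30 and 5.97 in labelled KO arrays, against 6.50, 6.23 and 5.75 in controls, and the groups overlapped, at -0.39 and at -0.15 without labelled KO array 2. Glce, the epimerase that turns glucuronic into iduronic acid, read 8.95, 9.0 and 9.0, against 8.56, 8.67 and 8.84 in controls, without overlap, at 0.30 ± 0.094 (limma adjusted p = 0.206) and 0.23 without control array 1.

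Chain start and extension showed smaller differences, and none of these 7 members had an unadjusted p under 0.05. Xylt1 and Xylt2 are the xylosyltransferases that begin both kinds of chain. Xylt1 read 9.53, 9.47 and 9.60 in labelled KO arrays, against 9.41, 9.43 and 9.34 in controls, without overlap, at 0.14 ± 0.083. Xylt2 read 8.20, 8.42 and 8.03, against 8.01, 8.18 and 8.14 in controls, and overlapped, at 0.11 and at 0.0077 without labelled KO array 2. Ext1 and Ext2, which together form the heparan sulfate polymerase, differed by -0.083 (95% interval -0.29 to 0.13) and 0.074 (95% interval -0.12 to 0.27).

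Extl3, which adds the first heparan-type sugar to the linker, read 10.59, 10.67 and 10.19 in labelled KO arrays, against 10.65, 10.75 and 10.42 in controls. In both groups array 3 was the lowest. Extl2, a transferase that can end the growing chain, read 10.02, 9.96 and 10.08, against 9.97, 10.24 and 10.23 in controls. Extl1, a related transferase, differed by -0.050 ± 0.17, the widest error of the 5 exostosin genes, and its values also dropped in array 3 of both groups, to 8.63 in the labelled KO array and 8.92 in the control array.

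Differences between 2 relatives on the same array do not depend on how arrays were scaled by a constant. The log2 value of Ndst2 minus that of Ndst3 was -0.10, 0.11 and -0.08 in labelled KO arrays, against -0.45, -0.67 and -0.66 in controls, a change of 0.57. Hs3st4 minus Hs3st2 was 0.22, 0.11 and 0.13, against -0.49, -0.51 and -0.27, a change of 0.58. Hs6st1 minus Hs6st3 changed by 0.32 and Sdc4 minus Sdc1 by 0.36. None of these 4 pairs overlapped between the groups, and each had a two-sided exact permutation p of 0.1, also 0.1 adjusted over the 4 pairs, which is the smallest that 3 against 3 arrays can give. The pairs were picked after their values were seen, so these values describe unequal change within each pair.

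**Figure D2:**
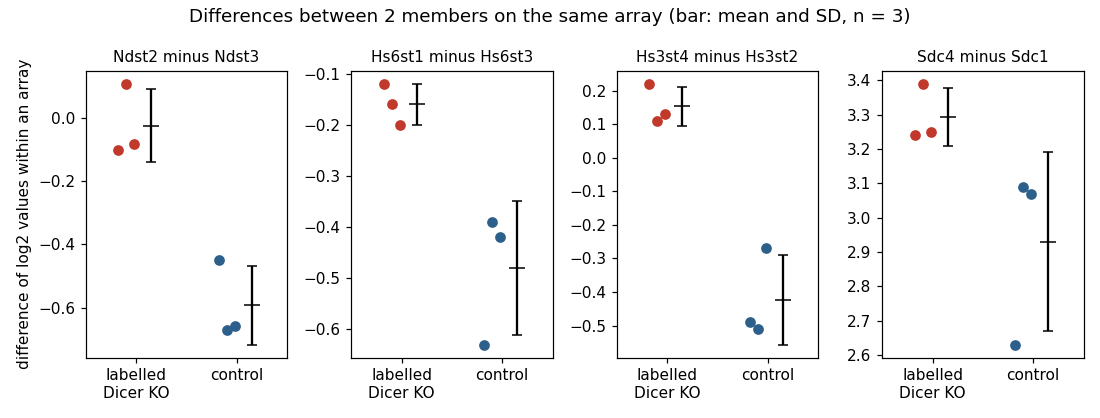
Difference of the log2 values of 2 members on the same array for 4 pairs, with labelled Dicer KO arrays on the left and controls on the right of each panel (points: arrays; bars: mean and SD, n = 3 each; each panel has its own axis range). The arrays of the groups are separated in each panel, with changes of 0.32 to 0.58.

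The extracellular sulfatases, which remove 6-O-sulfate from finished chains, overlapped between the groups. Sulf1 read 7.68, 7.27 and 7.97 in labelled KO arrays, against 7.75, 7.74 and 7.98 in controls, at -0.19 (95% interval -0.56 to 0.18). Sulf2 read 9.88, 9.81 and 9.97, against 9.78, 9.80 and 10.06 in controls, at 0.0076 (95% interval -0.22 to 0.24). Labelled KO array 2 was the lowest for Sulf1, and without it the difference was -0.0038.

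Syndecans, the transmembrane carriers of heparan sulfate, were all above 0, with a median of 0.16 over 4 members and none past the threshold. Sdc4, which works with integrins at focal adhesions, read 10.29, 10.16 and 10.30 in labelled KO arrays, against 9.65, 9.95 and 9.95 in controls. The lowest labelled KO array lay above the highest control, and control array 1 was the lowest. It was 1.32-fold higher, at 0.40 ± 0.11 (SE; limma adjusted p = 0.143), and 0.30 without control array 1. Sdc3, the main syndecan of neurons, read 9.80, 9.70 and 9.89, against 9.68, 9.60 and 9.69 in controls, at 0.14 ± 0.086, with groups that narrowly did not overlap. Sdc2, found at dendritic spines, read 9.05, 9.18 and 9.19, against 8.75, 9.02 and 9.11 in controls, and overlapped. Sdc1 differed by 0.037 (95% interval -0.20 to 0.27).

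Glypicans, which are anchored to the membrane by a lipid, had 2 members above 0 and 4 below, with a median of -0.038. Gpc3, known as a brake on hedgehog signalling and body growth, read 7.56, 7.2 and 7.2 in labelled KO arrays, against 6.76, 6.93 and 6.96 in controls. The groups did not overlap, and labelled KO array 1 was the highest. It was 1.36-fold higher, at 0.44 ± 0.12 (SE; limma adjusted p = 0.148), and 0.32 without labelled KO array 1. Gpc5 read 9.15, 8.93 and 9.34, against 9.0, 8.95 and 9.02 in controls, and Gpc2, a glypican of developing neurons, read 6.52, 6.43 and 6.44, against 6.74, 6.52 and 6.76. Both overlapped between the groups, Gpc2 at -0.21 ± 0.093 (limma adjusted p = 0.36). Gpc4 and Gpc6, which astrocytes release to promote excitatory synapses, differed by -0.14 (95% interval -0.44 to 0.16) and -0.029 (95% interval -0.24 to 0.18), and Gpc1 by -0.048.

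Marker lists of cell types were read on the same arrays. Reactive astrocyte markers were above 0 in 9 of 10 genes, with means of 0.32, 0.30 and 0.60 above the control mean in labelled KO arrays 1 to 3, against -0.097, 0.015 and 0.082 in the controls. Meningeal and fibroblast markers were above 0 in 9 of 9 genes, with means of 0.37, 0.092 and 0.28 in labelled KO arrays, against -0.075, 0.024 and 0.051 in the controls. Of both lists, Vim was the 1 gene past the threshold, at 0.52 (0.0903% of all genes were called higher). The general astrocyte list is a separate one that shares Gfap, at 1.07, with the reactive list. It was above 0 in 8 of 10 genes, with Aldh1l1 at -0.21 and S100b at -0.093. It averaged 0.17, 0.041 and 0.54 in labelled KO arrays, against -0.091, 0.01 and 0.081 in the controls. Oligodendrocyte precursor markers were below 0 in 8 of 9 genes, with means of -0.14, -0.27 and -0.22 in labelled KO arrays, against -0.049, -0.033 and 0.082 in the controls. An unadjusted p under 0.05 was found for 14.4% of all genes. It was found for 7 of 10 reactive astrocyte (70%) and 5 of 9 meningeal and fibroblast markers (55.6%). Excitatory neuron markers had 4 of 8 (50%) and astrocyte markers 4 of 10 (40%). Oligodendrocyte precursor and interneuron markers each had 3 of 9 (33.3%). Microglia and endothelial markers each had 2 of 9 (22.2%), and oligodendrocyte markers 0 of 9. Choroid plexus markers had 1 of 6 (16.7%) and olfactory bulb markers 0 of 11. Microglia markers averaged -0.066, -0.2 and 0.65 in labelled KO arrays, against -0.15, -0.014 and 0.17 in the controls. Oligodendrocyte markers averaged 0.16, -0.26 and 0.37, against -0.21, -0.2 and 0.41 in the controls. Excitatory neuron markers were below 0 in 6 of 8 genes. They averaged -0.11, -0.13 and -0.18 in labelled KO arrays, against -0.028, 0.035 and -0.0063 in the controls. Nrgn, a neuronal calmodulin-binding protein, passed the threshold at -0.60 (0.191% of all genes were called lower). The markers of this list did not move as one. Nptx1, a neuronal pentraxin of the same list, was at 0.41 without overlap (limma adjusted p = 0.079). Neurod2 and Tbr1 were at 0.015 and -0.011. The part of these markers in the members' differences was not tested.

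**Figure D3:**
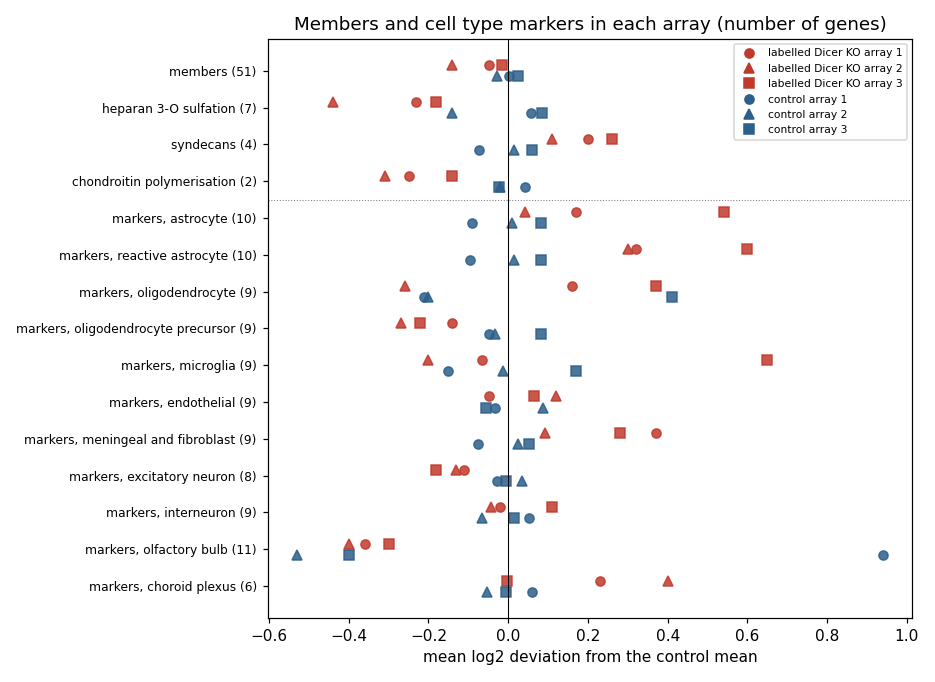
Mean log2 deviation from the control mean in each array for the members, 3 of their role groups and the cell type marker lists (number of genes in brackets; red: labelled Dicer KO arrays, blue: controls). Reactive astrocyte markers lie at 0.30 to 0.60 in the labelled KO arrays, chondroitin polymerisation genes at -0.31 to -0.14, and control array 1 stands apart in olfactory bulb markers at 0.94.

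Cemip2 was the member with the clearest increase. It read 8.28, 8.39 and 8.33 in labelled KO arrays 1 to 3, against 7.84, 7.68 and 7.67 in control arrays 1 to 3. The arrays of each group lay close together and far from those of the other. It averaged 8.34 ± 0.055 in the arrays labelled Dicer KO and 7.73 ± 0.098 in controls (SD, n = 3 each), 1.52-fold higher, by 0.61 ± 0.088 (SE; limma adjusted p = 0.0413). Leaving out labelled KO array 1 or 2 or any 1 control array ended the call (adjusted p = 0.122 to 0.187) with differences of 0.58 to 0.66, and without labelled KO array 3 it was kept (adjusted p = 0.0422). The call also ended with the animals' sex in the model, at 0.63 (adjusted p = 0.126), and in a test without moderation (adjusted p = 0.162). Other hyaluronan genes, from the hyaluronan synthases to the receptor Cd44, had no member at an unadjusted p under 0.05 among 6, and Cemip, the secreted relative of Cemip2, was at 0.24 ± 0.13.

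**Figure D4:**
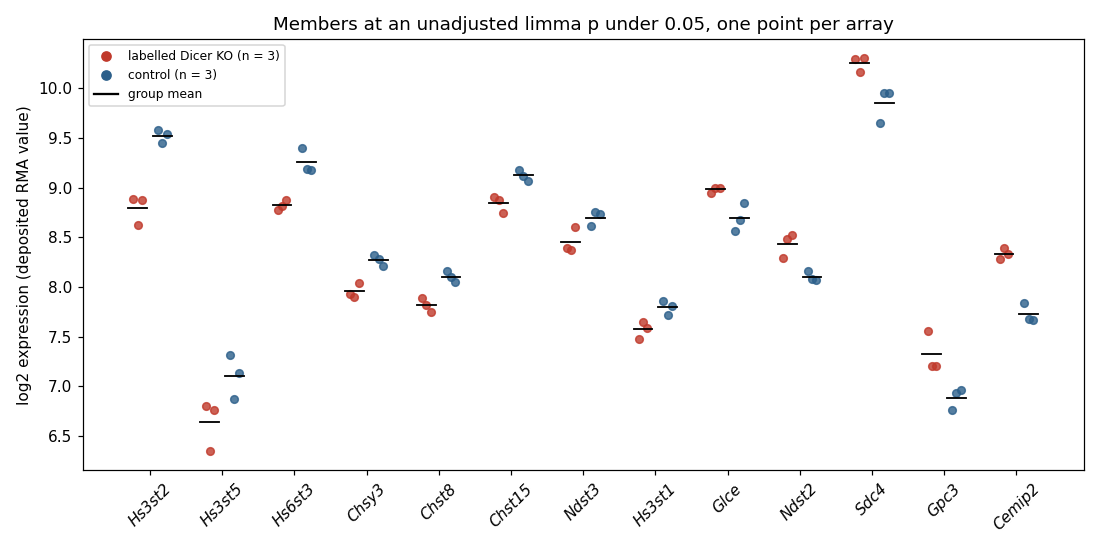
Log2 expression in each array of the 13 members at an unadjusted p under 0.05, ordered from the largest negative to the largest positive difference (red: labelled Dicer KO, left of each pair; blue: control; line: group mean). In each of these genes the arrays of the groups are separated, most widely for Hs3st2, at 8.62 to 8.89 in labelled KO arrays and 9.45 to 9.58 in controls.

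Both chondroitin synthases, which polymerise the chondroitin chain, were lower without overlap between the groups, and neither passed the threshold. Chsy3 read 7.93, 7.90 and 8.04 in labelled KO arrays, against 8.32, 8.28 and 8.21 in controls. It was 1.25-fold lower, at -0.32 ± 0.084 (SE; limma adjusted p = 0.144). Chsy1 read 8.44, 8.34 and 8.54, against 8.62, 8.54 and 8.61 in controls, at -0.15 ± 0.087 (limma adjusted p = 0.482). At 2 decimals the highest labelled KO array and the lowest control of Chsy1 read alike.

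The sulfotransferases of chondroitin and dermatan sulfate were below 0 in 5 of 7 members, with a median of -0.13. Chst15, which adds the second sulfate of the doubly sulfated chondroitin sulfate E unit, read 8.91, 8.88 and 8.74 in labelled KO arrays, against 9.18, 9.12 and 9.07 in controls. The groups did not overlap, at -0.28 ± 0.086 (SE; limma adjusted p = 0.196). Chst11, the main chondroitin 4-O-sulfotransferase, read 8.29, 7.75 and 8.30, against 8.5, 8.31 and 8.34 in controls, at -0.27 ± 0.15, and -0.089 without labelled KO array 2. Chst7, a 6-O-sulfotransferase on the X chromosome, read 5.50, 5.66 and 5.85, against 5.95, 5.84 and 5.92 in controls, at -0.23 ± 0.10 (limma adjusted p = 0.351), and overlapped by one array. All of these Chst7 values are dim, under the array medians. Chst3, the other 6-O enzyme, differed by -0.11, Chst13 by -0.13, and Chst12 and the dermatan enzyme Chst14 by 0.018 and 0.046.

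Carbohydrate sulfotransferases that act mainly on other glycans were below 0 in 6 of 7 members, with a median of -0.091. Chst8, which sulfates N-acetylgalactosamine on glycoproteins such as pituitary hormones, read 7.89, 7.82 and 7.75 in labelled KO arrays, against 8.16, 8.10 and 8.05 in controls. Its groups did not overlap, at -0.28 ± 0.084 (SE; limma adjusted p = 0.18). Chst10, which makes the HNK-1 epitope of neural adhesion molecules, read 9.20, 9.06 and 9.44, against 9.42, 9.48 and 9.52 in controls, and overlapped. Chst9, a relative of Chst8, read 3.87, 3.85 and 4.08, against 4.04, 4.11 and 4.45 in controls, all far under the array medians. Chst1, a keratan sulfate enzyme, differed by 0.15, and the N-acetylglucosamine 6-O-sulfotransferases Chst2, Chst4 and Chst5 by -0.091, -0.049 and -0.012, with overlapping groups.

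Other genes of the pathway, listed apart from the members, were counted on the same fit. Of 12 chondroitin sulfate proteoglycan cores and net proteins, 1 passed the threshold: Hapln4, a link protein of perineuronal nets, read 8.71, 9.23 and 9.10 in labelled KO arrays, against 10.03, 9.99 and 9.95 in controls, and fell by 0.98 ± 0.13 (SE; limma adjusted p = 0.0344). Acan, the net proteoglycan aggrecan, was at -0.24 and Bcan, the brain proteoglycan brevican, at 0.23, both without overlap between groups. Of these 12 genes, 4 (33.3%) had an unadjusted p under 0.05, beside 14.4% of all genes. Of the rest of the linker enzymes, 0 of 5 passed, with B3gat3 and B3galt6 each at -0.26 and without overlap. These 2 of 5 (40%) had an unadjusted p under 0.05. None of 7 further chondroitin and dermatan enzymes, 12 genes of sulfate donor and sugar nucleotide supply or 13 measured breakdown enzymes passed. In these lists 0, 2 (16.7%) and 2 (15.4%) had an unadjusted p under 0.05, beside 14.4% of all genes. The 4 genes so counted were Slc35d1, a sugar nucleotide carrier needed for chondroitin sulfate, at 0.34, the sulfate transporter Slc26a2 at 0.29, the lysosomal iduronidase Idua at 0.31 and the heparanase Hpse at -0.24. Among 6 other carriers of heparan sulfate none passed, and Tgfbr3, a TGF-beta co-receptor that carries such chains, came nearest, at 0.49 ± 0.082 (SE; limma adjusted p = 0.0548). Of these 6, 2 (33.3%) had an unadjusted p under 0.05.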

How the data were processed

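The deposited table holds log2 expression of 35557 probe sets on 6 Affymetrix arrays, made from 200 ng of total RNA per animal, per the labels' protocols. The authors' processing names RMA and limma, per the submitters' processing notes; their settings are not stated there. RMA draws differences of dim transcripts towards 0, and its usual quantile step would hide a shift common to most genes. No detection call was used, so signal over background is unknown.

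Of the probe sets, 21789 had 1 gene symbol in the platform's probe table, 1621 had several and 12147 had none; 21698 symbols were updated through the gene identifier in a RefSeq table of GRCm38.p6. The probe set with the highest mean was kept per gene. Ndst1 and Chst6 were not analysed here. Differences are labelled Dicer KO minus control, from limma 3.58.1 in R 4.3.3 (a model of group alone, with 4.89 prior degrees of freedom), two-sided, adjusted by Benjamini-Hochberg over 19938 genes, with moderated standard errors. Each array is a separate animal, so p-values reflect variation among animals. In data simulated with the real means and spreads over 19938 genes, 87.6% of changes of 1 and 34.2% of changes of 0.5 on the log2 scale were called, and 3.94% of calls were false. The simulated noise was independent between genes and few genes were changed. Effects shared by many genes of an array were left out, so these shares need not hold for the real calls. The arrays were all different (at least 35523 probe sets differed in any pair).

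The members, gene lists and role groups were chosen with earlier results of these data known. Per-array values are given for members past the threshold, members at an unadjusted p under 0.05 and up to 2 further members of largest difference per role group; other pathway lists name up to 3 genes of smallest p. Alternatives were a replicate block, each array left out, centring on the median, quantile normalization of the deposited values, dropping genes with a mean log2 value under 6.7, averaging probe sets, array weights, a robust prior with a trend, no moderation, and the animals' sex as a term.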

Additional observations from a re-analysis of the deposited data

How the results depend on the processing

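Hs3st2 and Cemip2 kept their direction under all 15 alternatives, as did the other 11 members at an unadjusted p under 0.05. The count of members past the threshold was 7 with array weights, which gave labelled KO array 1 a weight of 5.18 and the other arrays 0.43 to 1.2 and added Hs6st3, Gpc3, Chsy3, Sdc4 and Chst7. With those weights 1116 of all 19938 genes passed, beside 56 without them. The members' count was 0 with the animals' sex in the model (adjusted p = 0.126 for both genes, at -0.75 for Hs3st2 and 0.63 for Cemip2), where 0 of all genes passed and 14 members and 11.5% of all genes had an unadjusted p under 0.05. It was 0 with an unmoderated test (adjusted p = 0.194 for Hs3st2 and 0.162 for Cemip2; 14 members and 12.1% of all genes at an unadjusted p under 0.05), and 0 to 2 with single arrays left out. Members at an unadjusted p under 0.05 numbered 11 to 21 with single arrays left out, 21 being without labelled KO array 3, where 16.9% of all genes had such a p. Members whose groups do not overlap numbered 20 to 30 with single arrays left out, since fewer arrays overlap less often. The share over all genes was not counted for these settings, so nothing about the members is read from that range. The median difference lay between -0.13 and -0.05 with single arrays left out.

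Deviations of same-numbered arrays correlated with r of 0.09, 0.17 and 0.29, weakly but all above 0. Whether the array numbers mark pairs is not stated. With the replicate block 20 members had an unadjusted p under 0.05, beside 19.2% of all genes, and the 2 calls were unchanged. In that fit 215 of all 19938 genes passed the threshold, beside 56 without the block.

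Signs turned in the following members, all at -0.15 to 0.046 in the reported values. With array weights Ext1 was at 0.012, Extl1 at 0.062 and Hs3st4 at 0.0053, and with quantile normalization of the deposited values Chst5 was at 0.0057. With single arrays left out, differences ran from -0.0054 to 0.10 for Chst14, -0.12 to 0.0067 for Chst4, -0.037 to 0.013 for Chst5, -0.17 to 0.16 for Extl1, -0.21 to 0.026 for Extl3, -0.10 to 0.016 for Gpc1, -0.089 to 0.038 for Gpc6, -0.019 to 0.11 for Hs3st3b1, -0.011 to 0.13 for Sdc1 and -0.041 to 0.098 for Sulf2. The cause was not tested.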

Other observations

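Proteins that bind heparan sulfate were listed apart from the members, and none of 20 passed the threshold over all genes, while 6 (30%) had an unadjusted p under 0.05, beside 14.4% of all genes. Slit2, a guidance protein that needs heparan sulfate to act through Robo receptors, read 8.58, 8.46 and 8.89 in labelled KO arrays, against 9.14, 9.37 and 9.71 in controls. The groups did not overlap, and the difference was -0.77 ± 0.16 (SE; limma adjusted p = 0.0876). Its relative Slit1 read 8.66, 8.38 and 8.75, against 8.23, 8.35 and 8.16 in controls, at 0.34 ± 0.11 (limma adjusted p = 0.216), and the receptors Robo1 and Robo2 were at -0.035 and 0.11. The vascular growth factor gene Vegfa was at -0.44 and the synaptic receptor phosphatase gene Ptprd at 0.33, both without overlap. The growth factor genes Fgf9 and Fgf10, at -0.30 and -0.41, were also lower on every labelled KO array than on any control array. Slit1, Robo1, Robo2, Fgf9 and Fgf10 were named after their values were seen.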
